A study of Mus musculus with 8 samples.

Results

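The tropomodulin family consists of the tropomodulins Tmod1, Tmod2, Tmod3 and Tmod4 and the leiomodins Lmod1, Lmod2 and Lmod3. Its members were taken by gene symbol from a table of 55385 genes measured by RNA-seq in left ventricle, and all 7 were found, each as 1 row. The 4 Mst1-TG libraries come from male C57BL6 mice that carry an Mst1 transgene under the alpha-myosin heavy chain promoter, which limits the transgene to cardiomyocytes, and that are labelled as having experimental dilated cardiomyopathy. The 4 WT libraries come from male non-transgenic littermates on the same background, labelled as controls. The series' design text gives an age of 3 weeks, while the extraction protocol in the labels gives 3 months. Mst1, encoded by the mouse gene Stk4, is a kinase of the Hippo pathway, and the comparison asks how the ventricle of mice with this kinase overexpressed in cardiomyocytes differs from that of their littermates.

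Tropomodulins sit on the pointed end of actin filaments and block the gain and loss of subunits there, which together with tropomyosin helps to set the length of the thin filament in striated muscle. Leiomodins share much of that structure but promote the nucleation and growth of filaments instead of capping them. In heart muscle Tmod1 and Lmod2 are the best known members, and they act against each other at the pointed end.

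In Mst1-TG ventricle, transcripts of Tmod4, the tropomodulin known mainly from skeletal muscle, were at 0.127 times the WT level, and those of Lmod3, a leiomodin of striated muscle, were also lower. Transcripts of Tmod2, the tropomodulin named for its place in neurons, were higher. The cardiac pair Tmod1 and Lmod2, the widely expressed Tmod3 and the smooth muscle leiomodin Lmod1 had overlapping libraries in both groups. The set is the whole family by symbol, but the family was chosen by its differences in CPM between these same 8 libraries, the contrast described here, so that the differences of its members are given with their errors as a description and without p-values. In the fit over all 15314 genes tested (edgeR quasi-likelihood test, adjusted p below 0.05), 1 of the 7 members was called higher and 2 were called lower, beside 42.3% of all genes tested called in either direction, 21.2% higher and 21.1% lower. With library totals as the only scaling, 4 members were called higher and 2 lower, and the median log2 fold change of all genes then moved to 0.29 against 0.01.

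Short stretches of the promoters of Tmod4, Tmod2 and Tmod1 are shown because these 3 tropomodulins were lower, higher and overlapping between the groups. They come from RefSeq (GRCm38.p6), run 5′ to 3′ on the gene's own strand and cover 250 bases before to 50 bases after a transcription start. Capitals mark every match to CATTCC, the core of the site bound by TEAD factors, and to the E-box CANNTG, each searched on both strands.
Tmod4, chr3:95124264-95124563, forward strand: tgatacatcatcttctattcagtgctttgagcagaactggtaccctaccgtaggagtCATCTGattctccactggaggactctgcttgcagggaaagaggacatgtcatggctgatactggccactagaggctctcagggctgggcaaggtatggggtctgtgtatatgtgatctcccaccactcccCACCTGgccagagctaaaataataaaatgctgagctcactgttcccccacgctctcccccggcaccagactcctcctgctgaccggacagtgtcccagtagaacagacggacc
Tmod2, chr9:75611276-75611575, reverse strand: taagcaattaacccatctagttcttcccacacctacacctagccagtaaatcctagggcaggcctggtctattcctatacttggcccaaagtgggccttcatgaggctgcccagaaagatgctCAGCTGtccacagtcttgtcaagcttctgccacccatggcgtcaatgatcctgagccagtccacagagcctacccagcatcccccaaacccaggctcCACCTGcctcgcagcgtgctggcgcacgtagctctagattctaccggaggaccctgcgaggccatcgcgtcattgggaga
Tmod1, chr4:46038972-46039271, forward strand: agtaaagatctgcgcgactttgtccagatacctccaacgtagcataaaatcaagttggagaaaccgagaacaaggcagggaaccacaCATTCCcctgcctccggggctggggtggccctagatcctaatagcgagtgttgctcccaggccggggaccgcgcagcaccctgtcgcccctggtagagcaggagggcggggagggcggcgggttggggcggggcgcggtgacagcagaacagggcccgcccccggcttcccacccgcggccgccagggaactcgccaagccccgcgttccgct
The TEAD core was found once in the Tmod1 window, at position -163 from the start, and in neither the Tmod4 nor the Tmod2 window shown. E-boxes stood at positions -193 and -63 of Tmod4 and at -127 and -30 of Tmod2, and none was in the Tmod1 window. Of 32851 RefSeq promoter windows of 300 bases, 14.7% held the TEAD core and 72.3% an E-box, and none of the matched letters overlapped between the motifs. A TATA box (TATAAA), a CArG box and a MEF2 site were also searched on both strands and were in none of the 3 windows, against 13.6%, 1.63% and 3.19% of all windows. RefSeq windows were matched for 5 of the 7 members (Tmod1, Tmod2, Tmod4, Lmod1 and Lmod2), with a second window for Tmod2. The windows of Lmod1 and Lmod2, which overlapped between the groups, held 2 E-boxes each, and that of Lmod1 also held 1 TEAD core. The second Tmod2 window held 2 E-boxes and no TEAD core.

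The libraries held 21193536 to 23809256 estimated counts. Stk4 checked the labels, at 1608 ± 130.3 CPM in Mst1-TG and 27.2 ± 1.88 CPM in WT (SD, n = 4 each), where CPM is the count scaled to the library's size after TMM factors. Of 8 cardiomyocyte markers 5 were called lower and 0 higher (3 and 1 with library totals only, where the median was -0.13 in place of -0.41 on the log2 scale), with a summed level of 33840 to 43460 CPM in Mst1-TG and 47157 to 56608 CPM in WT libraries, so the tissue carried the markers of its label in both groups. Mitochondrial transcripts took 12.9% to 14.4% of the counts in Mst1-TG and 21.4% to 23.8% in WT libraries. In bulk tissue, fewer cells of a type and less RNA per cell cannot be told apart.

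Scaled by transcript length, the family was dominated by the 2 cardiac members. In Mst1-TG, Lmod2 stood at 234 ± 40.0 CPM per kb and Tmod1 at 113 ± 9.03, while in WT Lmod2 stood at 208 ± 25.5 and Tmod1 at 114 ± 12.4 CPM per kb (SD, n = 4 each). Their libraries did not overlap with each other within either group. In Mst1-TG the order went on with Tmod3 (34.8 ± 3.61), Lmod3 (20.9 ± 2.12), Lmod1 (2.08 ± 0.366), Tmod2 (1.83 ± 0.179) and Tmod4 (0.590 ± 0.272 CPM per kb), and only the neighbours Lmod1 and Tmod2 overlapped. In WT the order was Lmod3 (33.8 ± 0.852), Tmod3 (32.4 ± 1.54), Tmod4 (4.64 ± 0.486), Lmod1 (2.28 ± 0.206) and Tmod2 (1.06 ± 0.0493 CPM per kb), and only Lmod3 and Tmod3 overlapped. Tmod4 was thus the lowest member in Mst1-TG and the fifth of 7 in WT. The length used was that of the longest coding transcript, which for Tmod2 is 9884 bases against 1528 for its shortest, and with the median length instead Tmod2 stood at 9.74 CPM per kb in Mst1-TG and 5.66 in WT, above Tmod4 and Lmod1 in both groups, and Tmod3 at 56.0 and 52.1 CPM per kb, above Lmod3 in both.

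**Figure D1:**
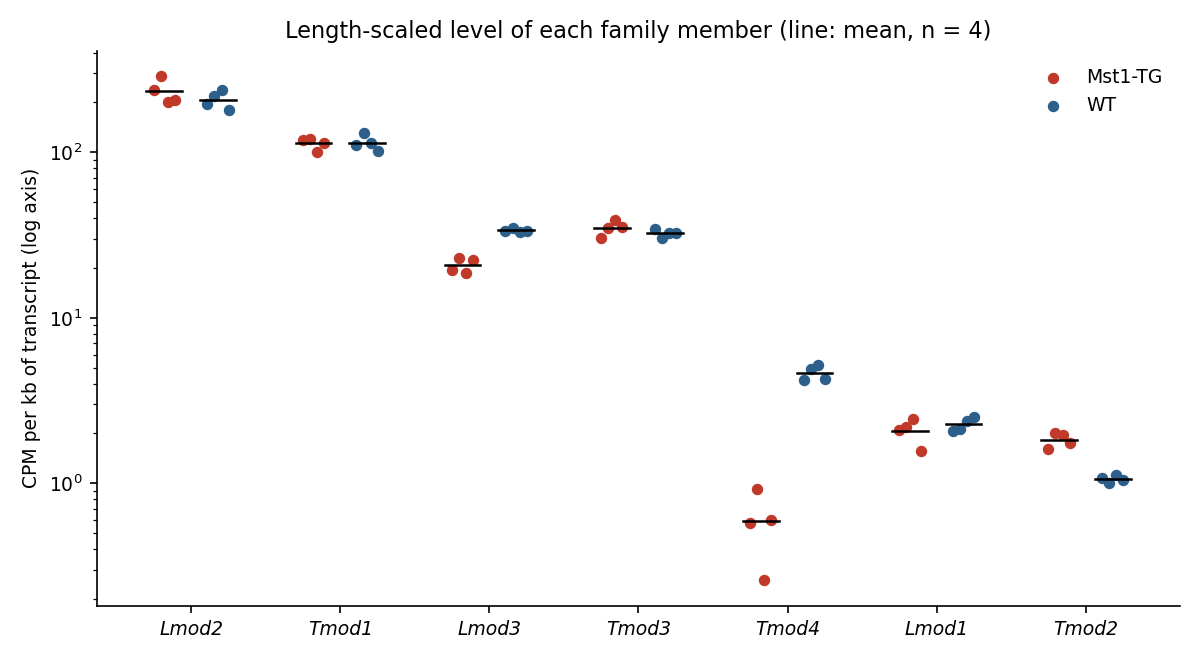
Length-scaled level of each family member (CPM per kb of the longest coding transcript, log axis), with 1 point per library, Mst1-TG left of WT for each gene, and a line at the mean of n = 4. Lmod2 and Tmod1 lie above 100 CPM per kb in every library, while Tmod4 lies at 0.590 CPM per kb on average in Mst1-TG and 4.64 in WT.

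Tmod1 caps the pointed ends of cardiac thin filaments and also belongs to the membrane skeleton of red blood cells. It had 375, 378, 316 and 359.7 CPM in Mst1-TG libraries 1 to 4, against 348, 414, 360.2 and 321 CPM in WT libraries 1 to 4. The highest and the second lowest of the 8 values were both WT libraries, and the groups overlapped throughout. The log2 fold change of Mst1-TG over WT was -0.01 ± 0.09 (SE), with a 95% interval of -0.20 to 0.18, which spans 0. Without Mst1-TG 3 it was 0.04 without WT 2 it was 0.06, and with library totals only it was 0.27, where it was called, beside 0.29 for the median of all genes. Tmod1 lies on chromosome 4 (46038935 to 46116032, GRCm38) and shares 1287 exonic bases with Tstd2 on the opposite strand, and no strand setting is given in the sources used here. Of its 3941 distinct windows of 31 bases, 1257 also occur in Tstd2, which was at 15.0 ± 1.94 CPM in Mst1-TG and 15.1 ± 0.929 CPM in WT. Red blood cells also hold Tmod1, and 7 of their markers had a median log2 fold change of -0.48. Of these 0 were called in edgeR and DESeq2 and 2 in limma-voom, both lower, while 2 had an unadjusted p below 0.05 in edgeR. With library totals only, with no filter or without WT 1, 1 of them was called higher. Without WT 2 or with the replicate block, 3 were called lower. Their summed level was 3597 to 7663 CPM in Mst1-TG and 5863 to 14926 CPM in WT libraries, and its part in the Tmod1 level was not tested.

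Lmod2 elongates cardiac thin filaments. Its libraries held 469, 571, 398 and 410.3 CPM in Mst1-TG, against 385, 434, 471 and 358 CPM in WT. The highest value came from Mst1-TG 2 and the lowest from WT 4, and the ranges overlapped between 398 and 471 CPM. Its log2 fold change was 0.17 ± 0.12 (SE), with a 95% interval of -0.10 to 0.43, and 0.45 with library totals only, where it was called. Leaving out 1 library gave 0.048 to 0.23, the lowest without Mst1-TG 2. Lmod2 (chromosome 6, 24597762 to 24605414) was the most abundant family member per length in all 8 libraries.

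Lmod3 is needed for normal thin filaments in skeletal muscle, where its loss causes nemaline myopathy in humans and mice. It had 43.3, 51.3, 41.4 and 49.3 CPM in Mst1-TG libraries, against 74.5, 77.4, 72.9 and 74.5 CPM in WT libraries. Every Mst1-TG library lay below every WT library, with a coefficient of variation of 10.1% in Mst1-TG and 2.52% in WT, whose libraries were close together. On the log2 scale the difference was -0.69 ± 0.07 (SE; 95% interval -0.85 to -0.53), a fold of 0.619, and was -0.41 with library totals only. Lmod3 (chromosome 6, 97238534 to 97252759) has a single annotated transcript of 2215 bases, none of whose windows of 31 bases occur in another gene.

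Tmod4 caps actin filaments mainly in skeletal muscle. Its estimated counts were 18, 27, 8 and 18 in Mst1-TG libraries and 113, 119, 138 and 106 in WT libraries, which is 0.730, 1.17, 0.326 and 0.753 CPM in Mst1-TG, against 5.34, 6.15, 6.56 and 5.34 CPM in WT. The groups lay far apart, and the lowest library, Mst1-TG 3, rests on 8 counts. Expressed as a log2 fold change, the difference was -2.97 ± 0.26 (SE; 95% interval -3.55 to -2.40), a fold of 0.127. By log2 fold change this placed Tmod4 26th from the lowest of 15314 genes tested. The spread in Mst1-TG was wide for so few counts, with a coefficient of variation of 46.1% in Mst1-TG and 10.5% in WT. Tmod4 lies on chromosome 3 (95124476 to 95129209), and none of its windows of 31 bases occur in another gene.

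Fast skeletal muscle markers moved in both directions beside Tmod4. Of 13 such markers 7 could be tested, of which 4 (Casq1, Mybpc2, Tnnt3 and Myl1) were called higher and 1 (Tnni2) lower, and the summed level of the list was 127 to 202 CPM in Mst1-TG and 44.8 to 70.0 CPM in WT libraries. The fast myosin heavy chain Myh4 was at 0 counts in all 8 libraries, Myh1 at 0 in 3, all of them WT, and Myh2 at 0 in 2. Casq1, the calsequestrin of fast fibres, was the most abundant of them, at 93.6 ± 35.1 CPM in Mst1-TG and 24.9 ± 8.05 CPM in WT. Tnni2, the fast troponin I, was at 0.619 ± 0.313 CPM in Mst1-TG and 2.10 ± 0.496 CPM in WT. Atp2a1, the calcium pump of fast fibres, was too low to be tested, at 0.198 ± 0.0644 CPM in Mst1-TG and 0.427 ± 0.151 CPM in WT. Actn3 and Myh1, also too low to be tested, went the other way. Actn3 was at 0.343 ± 0.0167 CPM in Mst1-TG and 0.208 ± 0.0441 CPM in WT. Myh1 was at 0.227 ± 0.105 CPM in Mst1-TG and 0.0238 ± 0.0476 CPM in WT. Mylpf and Pvalb, at under 1 CPM on average in both groups, were not called, with log2 fold changes of -0.17 ± 0.37 for Mylpf and -0.05 ± 0.51 for Pvalb. The part of skeletal muscle content in the Tmod4 level was not tested. Of 4 atrial markers tested 3 were called lower and 1 higher, with a summed level of 32.1 to 91.2 CPM in Mst1-TG and 89.7 to 128 CPM in WT libraries. The edgeR adjusted p was 0.046 for Myl7, 0.049 for Myl4, 0.016 for Sln and 0.038 for Dhrs9. These atrial calls changed with the library left out and with the setting. The number lower was 0 without Mst1-TG 3, 1 without Mst1-TG 2, Mst1-TG 4, WT 1, WT 2 or WT 4, and 2 without WT 3. It was 1 with library totals only and 0 with no filter on low counts. The 1 higher call was lost without Mst1-TG 1, Mst1-TG 3, Mst1-TG 4, WT 1, WT 3 or WT 4. The part of atrial or cardiomyocyte content in the lower Tmod4 and Lmod3 was not tested.

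Tmod2 is the tropomodulin of neurons, where it caps actin in axons and dendrites. It had 15.9, 19.8, 19.2 and 17.4 CPM in Mst1-TG libraries, against 10.7, 9.92, 11.1 and 10.4 CPM in WT libraries. All Mst1-TG libraries lay above all WT libraries. Mst1-TG over WT gave a log2 fold change of 0.78 ± 0.09 (SE; 95% interval 0.58 to 0.99), a 1.72-fold difference. Of 9 neuron and Schwann cell markers 5 could be tested and 1 (Tubb3, a tubulin of neurons) was called higher (2 with library totals only), with a summed level of 21.4 to 25.8 CPM in Mst1-TG and 17.0 to 24.3 CPM in WT, and Snap25 was at 0 in 4 libraries and Syt1 in 6. Without Mst1-TG 1, 1 neuron or Schwann cell marker was also called lower, and with no filter 2 were called higher and 1 lower. All 6 fibroblast markers were called higher, with a summed level of 3998 to 5472 CPM in Mst1-TG and 1578 to 1914 CPM in WT. The part of these cells in the higher Tmod2 was not tested.

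Tmod3, expressed in most cell types, lies beside Tmod2 on the same strand of chromosome 9, with 5963 bases between them. It had 111, 127, 143 and 130.1 CPM in Mst1-TG libraries, against 125, 112, 119 and 119.7 CPM in WT libraries. The lowest and the highest value both came from Mst1-TG, so that the WT range lay inside the Mst1-TG range. The log2 fold change was 0.10 ± 0.08 (SE; 95% interval -0.06 to 0.27), and 0.39 with library totals only, where it was called. Leaving out 1 library gave 0.045 to 0.17, the lowest without Mst1-TG 3. The 2 neighbouring genes share no window of 31 bases, nor does any other pair of members.

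Lmod1 is the leiomodin of smooth muscle. It had 8.31, 8.68, 9.66 and 6.23 CPM in Mst1-TG libraries, against 8.21, 8.43, 9.42 and 9.93 CPM in WT libraries. Mst1-TG 4 was the lowest library, and the other 3 Mst1-TG values lay within the WT range. The log2 fold change was -0.13 ± 0.14 (SE; 95% interval -0.43 to 0.17), and its sign turned to 0.16 with library totals only. Leaving out 1 library gave -0.22 to -0.017, nearest to 0 without Mst1-TG 4. Of 6 smooth muscle markers 4 were called lower and 1 (Cnn1) higher (2 and 2 with library totals only, where the median was -0.02 in place of -0.30 on the log2 scale), and their summed level was 465 to 602 CPM in Mst1-TG and 684 to 953 CPM in WT. Smooth muscle actin Acta2 was the most abundant of them, at 183 ± 57.0 CPM in Mst1-TG and 487 ± 117 CPM in WT. The part of smooth muscle in the Lmod1 level was not tested. Of the cells not linked to a member here, 3 of 6 endothelial markers were called lower and 0 higher in edgeR. That count was 0 with library totals only and 1 without Mst1-TG 1, Mst1-TG 2, WT 1, WT 3 or WT 4. It was 4 without WT 2 and 5 without Mst1-TG 3 or with no filter. Of 5 leukocyte markers tested 0 were called in edgeR, DESeq2 and limma-voom, with 1 at an unadjusted p below 0.05 in edgeR, and 3 were called higher with library totals only. With 1 library left out, 1 leukocyte marker was lower without WT 1 and 1 higher without WT 4.

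**Figure D2:**
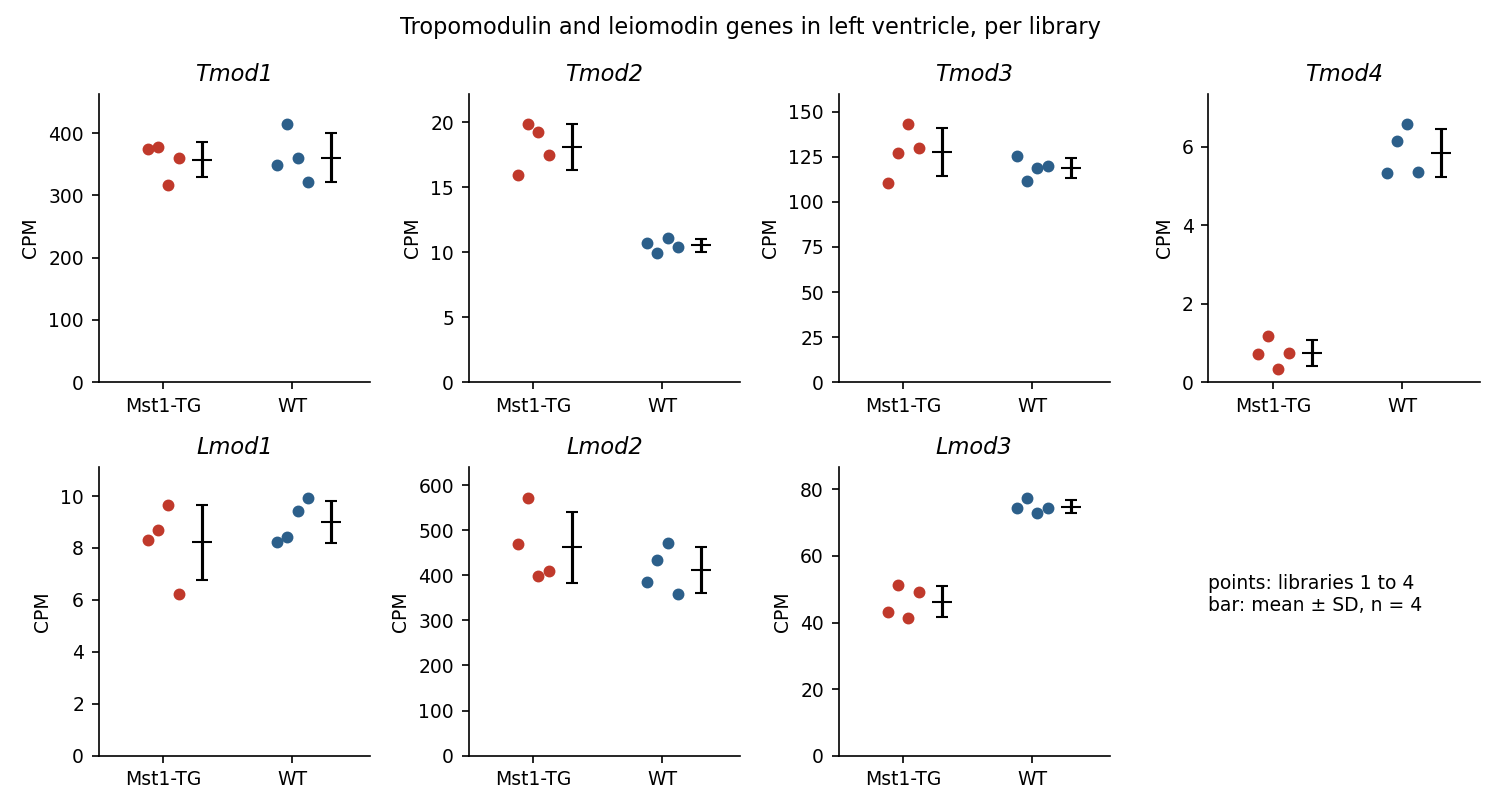
CPM of each member per library (linear axes from 0, 1 point per library in the order 1 to 4, Mst1-TG left of WT, bar at mean ± SD of n = 4). The groups stand apart for Tmod2, Tmod4 and Lmod3 and overlap for the other 4 genes.

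Groups did not overlap for 3 of the 7 members, 1 of them higher (Tmod2) and 2 lower (Tmod4 and Lmod3), beside 40.3% of all genes tested in either direction, 20.2% higher and 20.1% lower. Both that count and the 3 calls are shares close to the background of these libraries, and nothing is read from them, since the same contrast chose the family. The median log2 fold change of the 7 members was -0.01, and that of all genes tested was 0.01. Among the members, Tmod4 was at -2.97, while the other 6 ran from -0.69 to 0.78.

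**Figure D3:**
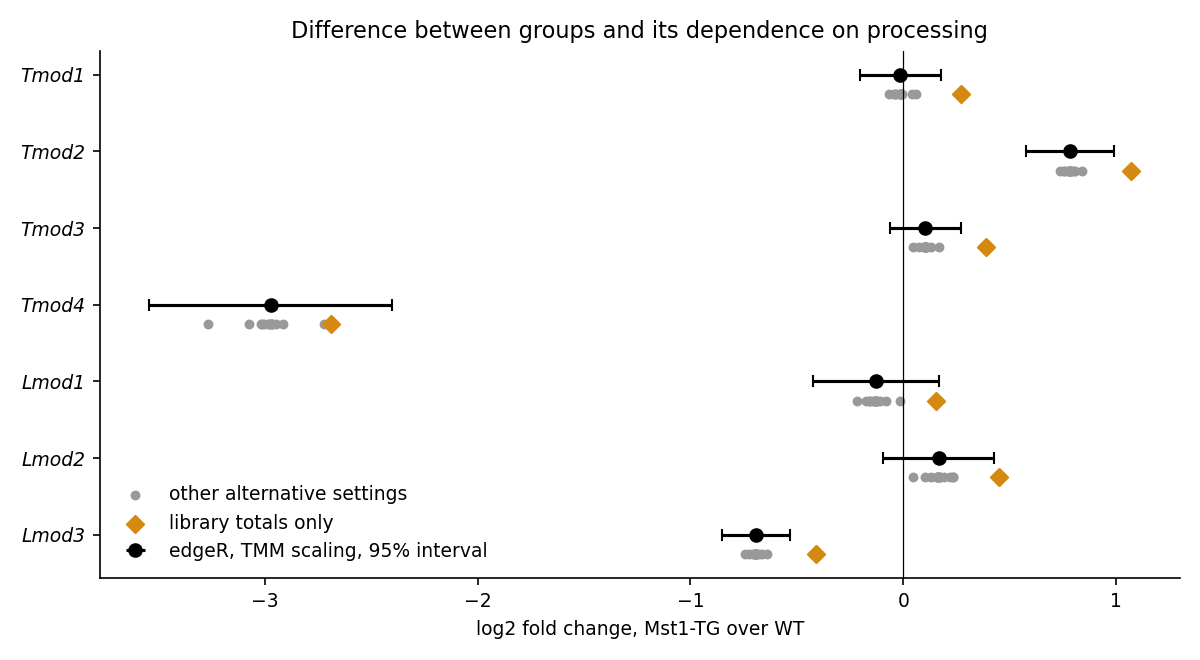
Log2 fold change of Mst1-TG over WT for each member, with its 95% interval (black), its values under 14 alternative settings (grey) and with library totals as the only scaling (orange diamond). Tmod4, Lmod3 and Tmod2 keep their direction under every setting drawn, and the library-total values lie to the right of the black points.

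Ratios inside a library do not depend on the scaling between libraries. Lmod2 over Tmod1, the pair that acts on cardiac pointed ends, was 2.00, 2.41, 2.01 and 1.82 in Mst1-TG libraries, against 1.77, 1.67, 2.09 and 1.78 in WT libraries, both per transcript length. These overlapped, and the mean log2 ratio was 0.17 higher in Mst1-TG, against an SD of 0.15 within groups. Lmod3 over Lmod2 was 0.0824, 0.0800, 0.0928 and 0.107 in Mst1-TG libraries, against 0.173, 0.159, 0.138 and 0.186 in WT libraries, and here the groups stood apart.

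Tmod4 over Tmod1 was 0.00501, 0.00786, 0.00274 and 0.00539 in Mst1-TG libraries, against 0.0386, 0.0374, 0.0458 and 0.0419 in WT libraries. Tmod2 over Tmod1 was 0.0136, 0.0168, 0.0195 and 0.0155 in Mst1-TG libraries, against 0.00981, 0.00768, 0.00985 and 0.0104 in WT libraries. Both ratios stood apart between the groups, the first lower and the second higher in Mst1-TG. The length used sets the level of such a ratio but not its difference between the groups: with the median length the mean log2 ratio of Tmod2 over Tmod1 in WT was -4.33 in place of -6.74. Tmod3 over Tmod1 overlapped, with a mean log2 ratio of -1.70 ± 0.26 in Mst1-TG and -1.81 ± 0.21 in WT (SD, n = 4 each).

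The make-up of each branch followed from these ratios. Among tropomodulins, Tmod1 made up 75.2% ± 3.22 of the length-scaled sum in Mst1-TG and 74.8% ± 2.42 in WT, and Tmod3 23.2% ± 3.21 in Mst1-TG and 21.4% ± 2.33 in WT (SD, n = 4 each). Tmod4 made up 0.387% ± 0.165 in Mst1-TG and 3.05% ± 0.256 in WT, and Tmod2 1.22% ± 0.135 in Mst1-TG and 0.702% ± 0.0693 in WT. The shares of Tmod1 and Tmod3 differed between groups by less than their SD, while those of Tmod4 and Tmod2 differed by more. With the median transcript length, Tmod2 made up 5.43% ± 0.50 in Mst1-TG and 3.21% ± 0.277 in WT and Tmod4 0.328% ± 0.142 in Mst1-TG and 2.65% ± 0.223 in WT, so that in WT the order of these 2 turned. The share of Tmod1 was then 63.0% ± 3.96 in Mst1-TG and 64.5% ± 3.06 in WT. That of Tmod3 was 31.2% ± 3.65 in Mst1-TG and 29.6% ± 2.82 in WT. Among leiomodins, Lmod2 made up 90.9% ± 1.03 in Mst1-TG and 85.1% ± 1.59 in WT, Lmod3 8.23% ± 1.03 in Mst1-TG and 13.9% ± 1.48 in WT, and Lmod1 0.823% ± 0.193 in Mst1-TG and 0.941% ± 0.147 in WT.

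**Figure D4:**
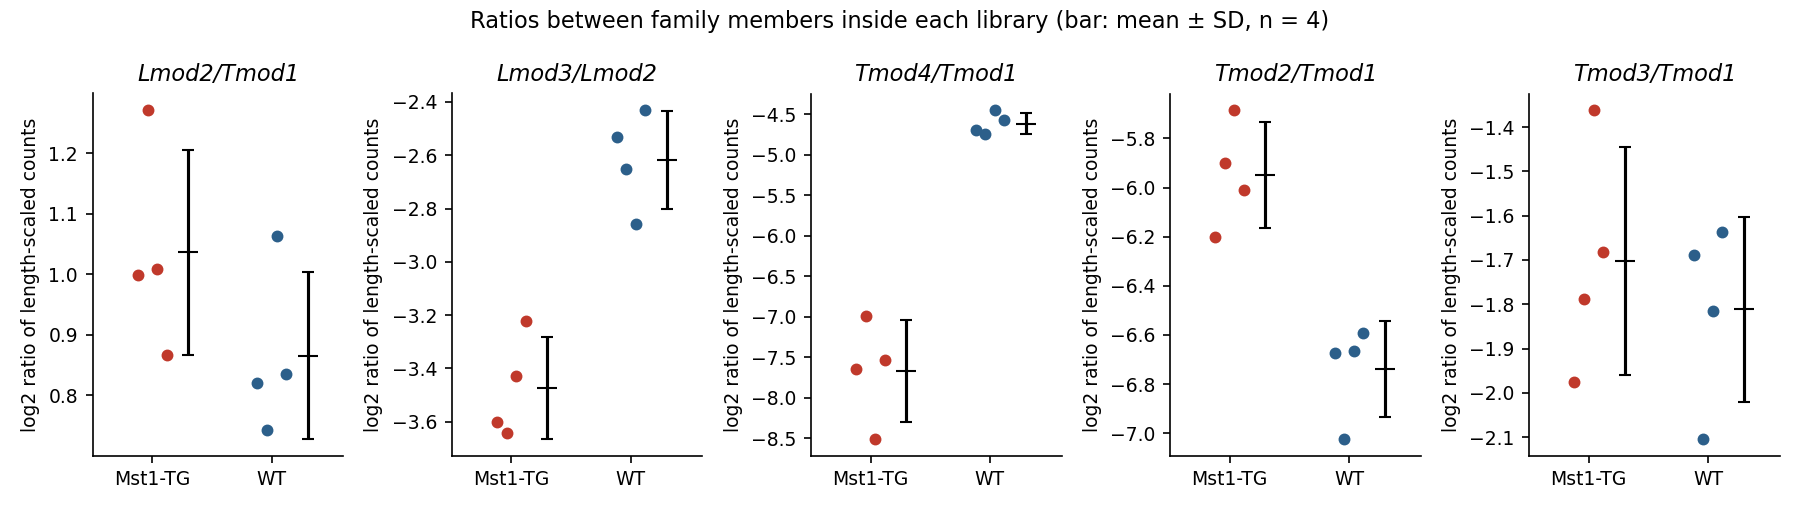
Log2 ratio of length-scaled counts between pairs of family members inside each library (1 point per library, Mst1-TG left of WT, bar at mean ± SD of n = 4; each panel has its own axis, which does not start at 0). Groups stand apart for Lmod3/Lmod2, Tmod4/Tmod1 and Tmod2/Tmod1 and overlap for Lmod2/Tmod1 and Tmod3/Tmod1.

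The partners of the family on the actin filament moved in both directions while Tmod1 and Lmod2 overlapped. Of 20 thin filament genes 7 rose and 5 fell (11 and 3 with library totals only), with a median log2 fold change of 0.02. The counts of this and the following lists stand beside 42.3% of all genes tested that were called, 21.2% higher and 21.1% lower, and over all 100 partner genes tested 35 rose and 19 fell (60 and 9 with library totals only). All 7 that rose did so by more than 2-fold, and several are known from skeletal or fetal muscle. Klhl40, which stabilises the Lmod3 and nebulin proteins in skeletal muscle, was at 29.5 ± 4.75 CPM in Mst1-TG and 7.66 ± 0.284 CPM in WT (log2 fold change 1.95 ± 0.12 SE, edgeR adjusted p = 5.9e-08), a direction opposite to that of the Lmod3 transcript. Its relative Klhl41 rose by 2.32 ± 0.13 (adjusted p = 7.6e-08) and Neb, the giant nebulin that runs along the thin filament of skeletal muscle, by 2.42 ± 0.30 (adjusted p = 6.5e-05). Tpm2, a tropomyosin to which tropomodulins can bind, rose by 1.95 ± 0.07, skeletal actin Acta1, a near copy of cardiac actin whose reads may be shared, by 3.41 ± 0.25, slow troponin I Tnni1 by 3.14 ± 0.20 and the filament assembly protein Nrap by 1.52 ± 0.10. Of the 5 that fell, cardiac troponin I Tnni3 changed by -1.33 ± 0.09, smooth muscle actin Acta2 by -1.41 ± 0.25 and Tpm1, the main tropomyosin of the heart, by -0.73 ± 0.08, at 4760 ± 320.1 CPM in Mst1-TG and 7874 ± 499.0 CPM in WT. The rest were cardiac troponin T Tnnt2, at -0.42 ± 0.10, and slow troponin T Tnnt1, at -0.43 ± 0.11.

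At the other end of the filament, barbed-end cappers and adducins rose in 5 of 13 cases and fell in 2 (10 and 1 with library totals only), with a median of 0.14. Add2, an adducin of the membrane skeleton, rose by 2.69 ± 0.23 on the log2 scale, the capping protein Capg by 1.48 ± 0.08 and Carmil1, which regulates capping protein, by 1.08 ± 0.18. Its relative Carmil3 fell, at -0.78 ± 0.17, and so did the capping protein subunit Capzb, at -0.18 ± 0.06. Of 19 actin turnover genes 6 rose and 2 fell (15 and 0 with library totals only), with a median of 0.10, and the largest change among those called was that of Tmsb10, a thymosin that binds actin monomers, at 0.59 ± 0.12. Cfl2, the cofilin of muscle that severs filaments, rose by 0.29 ± 0.07. The counts of genes that fell are small and changed with the library left out. For example, 1 barbed-end gene fell without Mst1-TG 3, WT 1 or WT 4, and 1 turnover gene without WT 2 and 0 without WT 3.

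Of 27 nucleators and elongators 12 rose and 5 fell (18 and 2), with a median of 0.16, among them Enah, which extends actin filaments, by 1.69 ± 0.15, the formin Diaph3 by 1.45 ± 0.36 and Spire2 by 2.64 ± 0.49. Spire2 was scarce, at 0.642 ± 0.232 CPM in Mst1-TG and 0.0981 ± 0.0408 CPM in WT. Among subunits of the Arp2/3 complex, which starts branched filaments, Actr3 rose by 0.37 ± 0.07 and Arpc4 by 0.34 ± 0.07. Among those that fell were the formin Fmnl1, at -0.78 ± 0.08, and Cobll1, at -0.57 ± 0.11.

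Genes of the spectrin membrane skeleton, to which Tmod1 belongs in red blood cells, fell in 4 of 13 cases and rose in 2 (3 and 3). Their median was -0.15, and 0.13 with library totals only. The largest of these falls was Ank1, an ankyrin, at -0.91 ± 0.09. It was followed by Ank2, at -0.71 ± 0.08, and Epb41, the protein 4.1 of red blood cells, at -0.62 ± 0.12. Epb41l1, a relative of Epb41, rose by 0.43 ± 0.08. Of 9 SRF and MEF2 regulators 8 were tested, 3 rose and 1 fell (3 and 0), with a median of -0.11 that was 0.18 with library totals only. Abra, an activator of SRF in striated muscle, rose by 1.90 ± 0.18, and Mrtfa, which carries the actin monomer signal to SRF, by 0.34 ± 0.08. Srf itself fell, at -0.32 ± 0.08, and was not called with library totals only. In this list 2 genes fell without Mst1-TG 1 and 3 without WT 4.

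**Figure D5:**
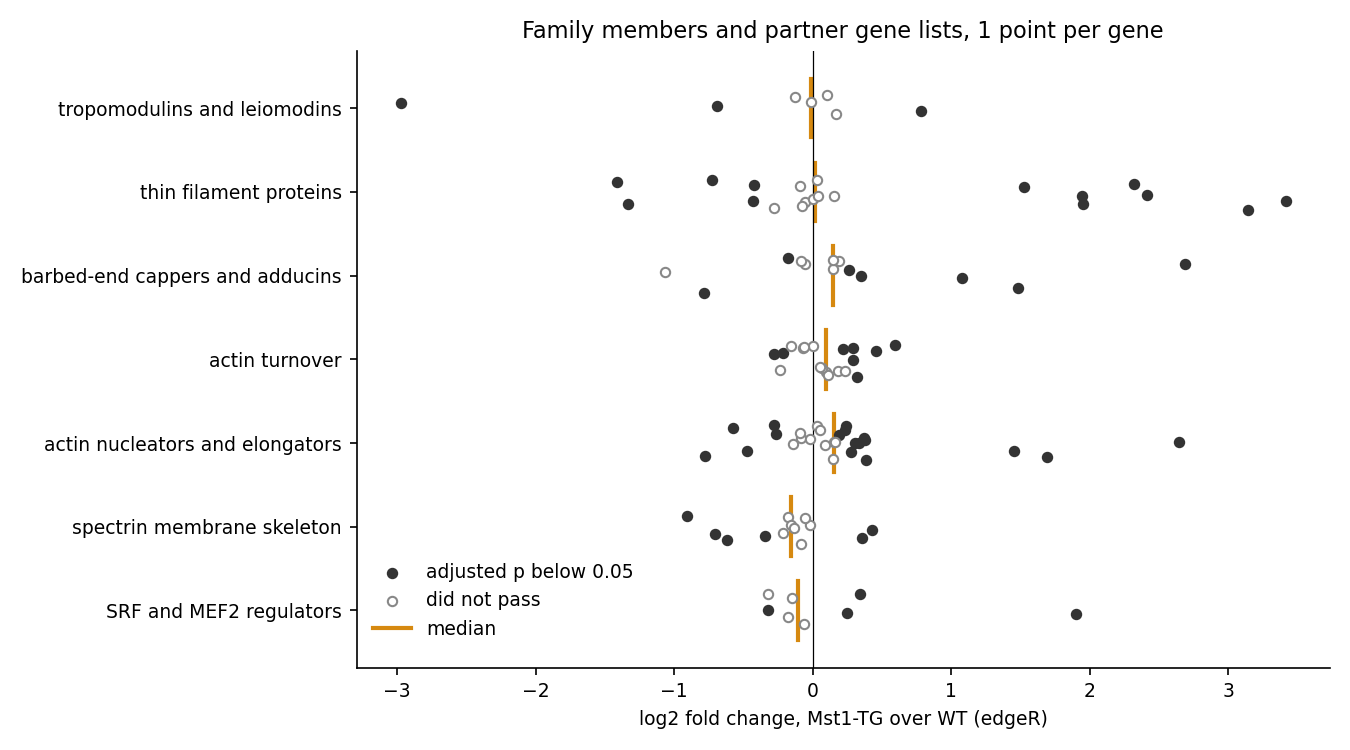
Log2 fold change of Mst1-TG over WT (edgeR) for the 7 family members and for the tested genes of 6 partner lists, 1 point per gene, filled where the adjusted p was below 0.05, with the median of each list in orange. The medians run from -0.15 to 0.16, and in the list of thin filament genes 7 filled points lie to the right of 0 and 5 to the left.

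Pearson's r of log2 CPM over the 8 libraries was used only to name the genes with the most similar profile among 12601 others, and it follows the difference between the groups where there is one. For Tmod4 these were Fam174b (0.999), Zfp612 (0.998) and Mfn2 (0.996), which is a mitochondrial fusion protein. For Lmod3 they were C330018D20Rik (0.996), Pitpnc1 (0.995) and Pgam2 (0.995), the muscle phosphoglycerate mutase, and for Tmod2 Fibin (0.995), Pon2 (0.993) and the intermediate filament protein Synm (0.993). An r above 0.9 was reached by 1672 genes for Tmod4, 1672 for Lmod3 and 1143 for Tmod2, so that a high value was common. Among the closest for Tmod1 were D10Wsu102e (0.977) and the sodium pump subunit Atp1b1 (0.950), and for Lmod2 they were 4932438A13Rik (0.955), Lnpep (0.949) and Ago2 (0.935). An r above 0.9 was rarer there, with 17 genes for Tmod1 and 8 for Lmod2. For Tmod3 the closest were Adarb1 (0.985), Sh3bgrl2 (0.977) and Ece1 (0.975), and for Lmod1 Mink1 (0.880), Ppp2r1b (0.876) and Anxa3 (0.869).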

How the data were processed

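RNA of left ventricle was sequenced in 4 Mst1-TG and 4 WT samples. Per the labels' protocols, ribosomal RNA was removed from 200 ng of RNA before directional library preparation. Bcl2fastq 2.19.1.403 and the pseudoaligner kallisto 0.46.0 are named in the submitters' processing notes. The authors deposited estimated counts per gene, whole numbers not scaled for depth, so rounding changed none. The authors' build, annotation, strand setting and filters: not given in the sources used here.

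Groups come from sample titles. Whether each sample is its own animal is not stated in the labels, and p-values rest on the spread among samples, which could be technical. Replicates differed by more than counting noise in every pair (chi-square over its degrees of freedom, 7.92 to 23.4). Counts were tested in R 4.3.3 with edgeR 4.0.16: filterByExpr (minimum count 10, minimum total 15), which kept 15314 genes and all 7 members, TMM scaling, a robust quasi-likelihood F test and Benjamini-Hochberg adjustment over all genes tested, with a threshold of 0.05. The spread among samples beyond counting noise, which edgeR calls the biological coefficient of variation, was 11.4%, and it could also be technical. Fold changes are Mst1-TG over WT on the log2 scale, and the SE of one is its size over the root of F. Ratios inside a library used counts plus 0.5. Lengths, positions and 31-base windows come from GENCODE M21 (GRCm38), which holds 54487 of the 55385 gene identifiers with their version. The test was checked on simulated data in which few genes changed, in both directions, so the choice of scaling was not checked.

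Members, gene lists and marker lists were chosen with earlier results of these data known. Named genes are the members, partner genes called with a change of at least 2-fold, in each list up to 4 others with the smallest p, and the 3 genes most correlated with each member. For Tmod1, 1 of those 3 is not reported here. Not all of those others are printed. Alternatives were RLE factors, library totals only, no filter, DESeq2 1.42.0, limma-voom (limma 3.58.1), leaving out mitochondrial and the 20 most abundant genes, a replicate block and leaving out each library. Ratios were also taken without length scaling, and ratios and shares, an alternative chosen after seeing the data, with the median transcript length.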

Additional observations from a re-analysis of the deposited data

How the results depend on the processing

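Scaling by library totals alone moved the counts of calls, apart from that of lower members, which stayed at 2: 7409 genes were then higher and 1592 lower (3244 and 3238 with TMM factors), 4 members were higher in place of 1, and of the partner genes 60 were higher and 9 lower (35 and 19). It also turned the log2 fold change of Tmod1 to 0.27 and of Lmod1 to 0.16, and Tmod1, Tmod3 (0.39) and Lmod2 (0.45) were then called higher. Leaving out 1 library gave -0.068 to 0.058 for Tmod1, which turned to 0.04 without Mst1-TG 3 and to 0.058 without WT 2. Over all 15 alternatives Tmod4 ran from -3.27 to -2.69, Lmod3 from -0.74 to -0.41 and Tmod2 from 0.74 to 1.07, each with its direction and call kept (edgeR, DESeq2 and limma-voom). These fits reuse the libraries by which the family was chosen, so that the kept calls are no separate support for the differences. Omitting 1 library at a time gave 2799 to 3136 higher and 2888 to 3208 lower genes, 1 higher and 2 lower members, and 29 to 37 higher and 16 to 21 lower partner genes. The same omissions gave differences in log2 ratio of 0.09 to 0.24 for Lmod2/Tmod1, -0.94 to -0.79 for Lmod3/Lmod2, -3.28 to -2.77 for Tmod4/Tmod1, 0.69 to 0.87 for Tmod2/Tmod1 and -0.0040 to 0.20 for Tmod3/Tmod1, whose sign turned without Mst1-TG 3. Among the lists, DESeq2 called 4 SRF and MEF2 regulators lower in place of 1, and leaving out mitochondrial and the most abundant genes left 3 lower thin filament genes in place of 5, since 17 of the 20 could then be tested. Replicate numbers did not pair the libraries (correlation of deviations -0.19 to 0.05 over the 4 numbers, and no library matched best with its own number). With the replicate block 3064 genes were higher and 3123 lower, and the same number of members (1 and 2) was called. The levels of Tmod2 and Tmod3 per length depend on the transcript chosen, and Tmod4 in Mst1-TG rests on 71 counts in all.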

Other observations

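Genes next to a family member went with it in some cases and not in others. Of all genes tested, 42.3% were called in either direction. Shisa4, which lies 2991 bases beyond Lmod1 on the opposite strand of chromosome 1, was at 57.0 ± 7.07 CPM in Mst1-TG and 4.86 ± 1.17 CPM in WT (SD, n = 4 each), a log2 fold change of 3.56 ± 0.15 (SE), while Lmod1 itself overlapped between groups. On its other side Timm17a, a subunit of the mitochondrial import channel, fell by 0.51 on the log2 scale. Beside Tmod4, Vps72 was at 22.7 ± 0.897 CPM in Mst1-TG and 23.8 ± 1.21 CPM in WT, and Scnm1, 326 bases away on the opposite strand, changed by -0.34 ± 0.09, both far less than Tmod4. Lysmd2, which lies 14415 bases before the start of Tmod2 on the opposite strand, rose by 0.54 ± 0.10. Tmod3, which follows Tmod2 on the same strand, was not called. Arl6ip5 beside Lmod3 rose by 0.27 ± 0.06, opposite in direction to Lmod3, and Frmd4b on the other side was not called. Wasl, an activator of actin nucleation beside Lmod2, and Tdrd7 beside Tmod1 were not called.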
